A study of Mus musculus with 18 samples.

Results

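Messenger RNA levels of 10 genes of the Bcl2 family were followed in mouse regulatory T (Treg) cells from 6 sites. The genes were taken by name from a list and matched to the Ensembl identifiers of the deposited tables, and all 10 were found among 55487 gene identifiers. They comprise 5 pro-survival genes (Bcl2, Bcl2l1, Mcl1, Bcl2a1b, Bcl2a1d), 3 BH3-only genes (Bcl2l11, Pmaip1, Bbc3) and 2 effectors (Bax, Bak1). The series holds 18 poly(A) RNA libraries, 3 from each of peripheral blood, spleen, lymph node, liver, lung and bone marrow, and sets blood Treg cells beside those of the organs. Every library came from wild-type mice given no treatment, and from cells freshly sorted as CD4+Foxp3+. The age and sex of the mice, the sorting gates, the way each organ was made into a suspension and the number of animals behind a library are not stated in the labels. P-values therefore measure only the spread between these libraries, which may be technical.

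Cells commit to the mitochondrial route of apoptosis when Bax and Bak1 proteins perforate the outer mitochondrial membrane. Pro-survival proteins of the family bind and restrain these effectors, and BH3-only proteins such as Bim (from Bcl2l11), Noxa (from Pmaip1) and Puma (from Bbc3) bind the pro-survival proteins or activate the effectors. In T cells, Treg cells included, the level of Bim relative to Bcl2 and Mcl1 is known to set how long cells live without cytokine, and interleukin-2 is known to sustain Mcl1. Noxa binds mainly Mcl1 and the Bcl2a1 (A1) proteins. Protein levels and protein binding were not measured here.

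The mouse genome carries several near-identical copies of Bcl2a1, so the reads of Bcl2a1b and Bcl2a1d can be hard to tell apart. The first part of their coding sequences, with the closely related Bcl2a1a, shows how few bases separate the copies. Positions 1 to 120 of the 519 coding bases are printed, from the mm10 annotation (GENCODE M21), and capitals mark the 7 positions at which the 3 copies are not all alike.
Bcl2a1a: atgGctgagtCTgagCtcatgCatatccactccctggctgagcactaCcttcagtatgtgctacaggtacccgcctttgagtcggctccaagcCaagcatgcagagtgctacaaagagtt
Bcl2a1b: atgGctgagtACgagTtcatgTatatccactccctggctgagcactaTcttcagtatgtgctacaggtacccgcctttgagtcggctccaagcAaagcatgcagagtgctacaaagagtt
Bcl2a1d: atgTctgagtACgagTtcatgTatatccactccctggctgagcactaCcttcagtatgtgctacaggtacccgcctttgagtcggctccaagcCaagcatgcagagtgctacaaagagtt
Over the whole coding sequence 12 positions vary. Bcl2a1b and Bcl2a1d differ at 6 of 519 bases (98.8% identity), Bcl2a1a and Bcl2a1b at 11 (97.9%), and Bcl2a1a and Bcl2a1d at 7 (98.7%). Of all stretches of 100 bases in the transcript of Bcl2a1b, 31.1% also occur in another of these copies, and for Bcl2a1d the share is 54.7%. The separate values of the copies are therefore uncertain, and their sum is given beside them.

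The sequences before the annotated starts of Bcl2a1b and Bcl2a1d share a long stretch, which lies at different distances from the 2 starts. They are shown because the copies are close in sequence there as well. These sequences come from RefSeq promoters (GRCm38.p6), on the strand of each gene, and capitals mark a match to the AP-1 motif (TGANTCA, searched on both strands).
Bcl2a1b, chr9:89199023-89199208, plus strand: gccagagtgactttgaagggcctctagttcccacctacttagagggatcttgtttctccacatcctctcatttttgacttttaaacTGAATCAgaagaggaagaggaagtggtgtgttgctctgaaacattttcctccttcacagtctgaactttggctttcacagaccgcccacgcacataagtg
Bcl2a1d, chr9:88731915-88732100, minus strand: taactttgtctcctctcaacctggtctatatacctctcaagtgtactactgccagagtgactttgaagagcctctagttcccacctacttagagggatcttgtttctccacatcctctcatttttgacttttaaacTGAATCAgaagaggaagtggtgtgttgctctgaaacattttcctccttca
In the shared stretch 135 of 136 aligned bases matched (99.3%), with 6 further bases in gaps. An AP-1 match occurs in 7.79% of 32544 RefSeq promoter windows of 300 bases, and none of the windows of the other members searched held one. The matches of Bcl2a1b and Bcl2a1d lie in the shared stretch, so they are not independent. The window of Bcl2a1a held a match as well. The Foxo core (GTAAACA) occurred in 1 window each of Bcl2l11 and Bbc3, against 3.66% of all windows. The NF-kappaB motif occurred in 1 window each of Bcl2l1 and Bbc3, against 4.53% of all windows. Bcl2l11, Bcl2l1 and Bbc3 had several windows each, so these matches are not shares to compare with those percentages. The windows of the 9 members searched held neither the CRE (TGACGTCA, 1.8% of windows) nor the STAT motif (TTCNNNGAA, 8.33%), and Pmaip1 was not searched. A match describes letters in a window, and binding was not measured.

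Values are TPM, a unit of transcript abundance that is corrected for transcript length and sums to the same total in each library. TPM keeps no sequencing depth, so no counting interval can be given. Between 14314 and 19797 genes were above 0 TPM in a library, with the fewest in liver (14314 to 14408). The precision of the 10 genes differed by site, with a median coefficient of variation over 3 libraries that was smallest in lymph node (3.53%) and blood (4.26%), then bone marrow (5.54%), spleen (11.1%), lung (14.6%) and liver (17.5%). Foxp3 was present at 88.6 to 239 TPM in the group means. The 7 Treg marker genes summed to 654 to 660 TPM per library in blood and to 1202 to 2858 TPM elsewhere, and 20 T cell genes to 3366 to 3463 TPM in blood and 5121 to 7938 TPM elsewhere. Markers of other cells were also present. The 18 neutrophil and myeloid genes, each at 1 TPM or more in blood and in bone marrow, summed to 30006 to 30842 TPM in blood and 48950 to 49236 TPM in bone marrow, against 1811 to 1884 in lung, 736 to 922 in spleen, 208 to 442 in liver and 45.1 to 93.8 in lymph node. The 7 platelet genes summed to 2748 to 2868 TPM in blood, 70.5 to 82.3 TPM in bone marrow and at most 22.6 TPM elsewhere. Erythroid genes (7 of 8 were found) reached 10932 to 11969 TPM in liver and 6363 to 6549 TPM in bone marrow, against 72.8 to 2992 TPM elsewhere. The 8 cytotoxic (CD8 T and natural killer) genes summed to 558 to 610 TPM in blood and 60.2 to 123 TPM elsewhere. The 6 B cell genes were at 456 to 559 TPM in blood, bone marrow and spleen and at 45.9 to 146 TPM in the other libraries. The 6 lung epithelium genes reached 227 to 303 TPM in lung and at most 14.2 TPM elsewhere, and the 6 hepatocyte genes at most 17.9 TPM in any library. In bulk RNA of this kind, a lower share of cells of a type and less RNA per cell cannot be told apart. The part of these other cells in the differences below was not tested. Comparisons are also given after scaling each library to its 20 T cell genes. That scaling divides all genes of a library by the same factor, so it cannot separate the RNA of other cells from that of Treg cells.

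Each gene was tested in a limma model of log2(TPM + 1) over all 18 libraries, with p-values adjusted by the Benjamini-Hochberg method over 16694 genes and called at an adjusted p under 0.05. Fold changes are differences on that log2 scale, and they understate the change of low genes. Low genes, whose mean was under 1 TPM at all 6 sites, were not tested, and all 10 members passed this filter. An F test over the 6 sites called all 10, where 68% of all genes tested were called. The 15 pairs of sites share libraries with one another, so their values stand side by side and are not independent of each other.

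**Figure D1:**
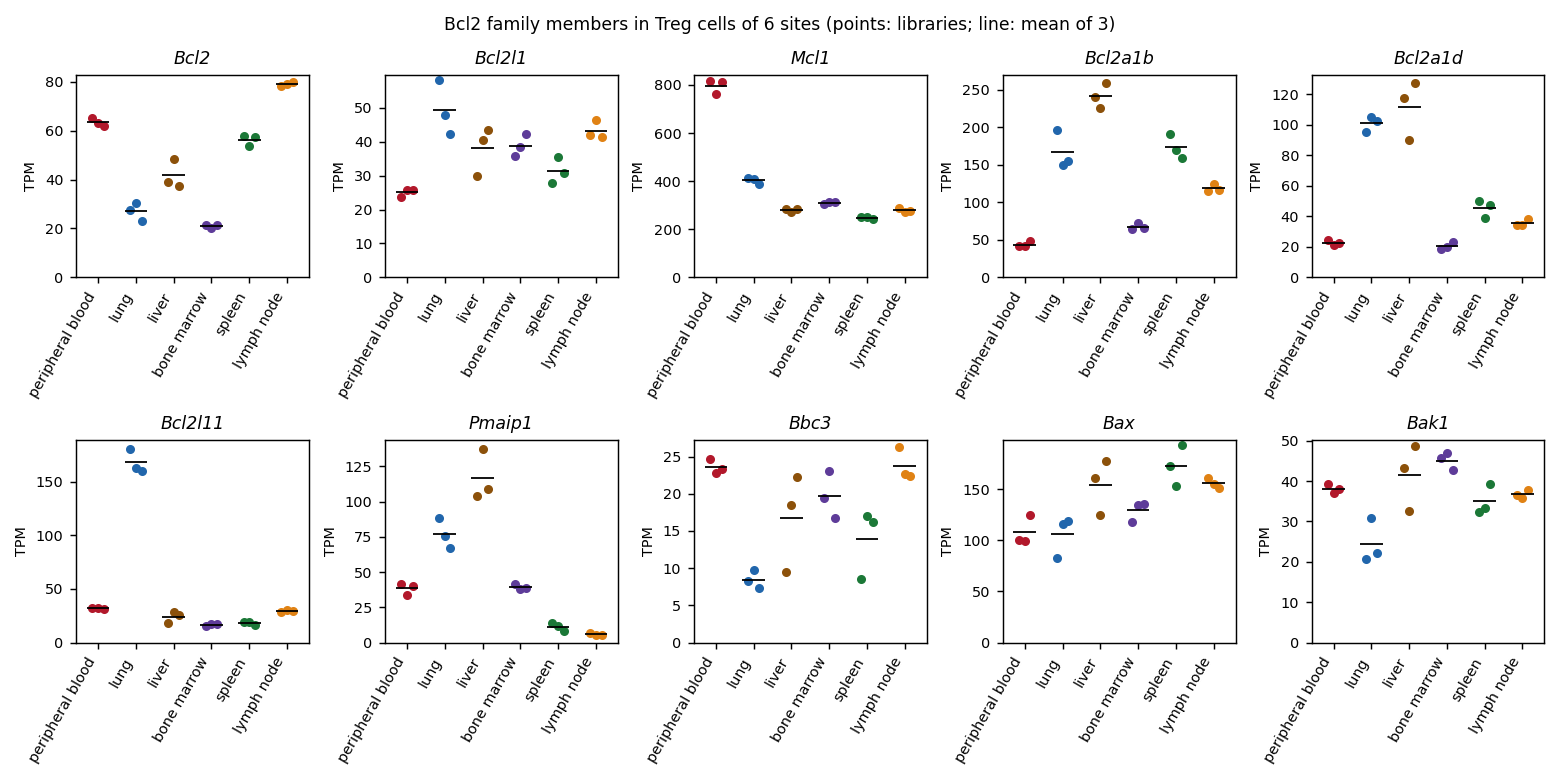
TPM of the 10 members in each of 18 libraries (1 panel a gene, points are libraries, the line is the mean of 3, each axis starts at 0). Mcl1 was highest in the 3 blood libraries, Bcl2l11 in the 3 lung libraries, and Pmaip1 ran from 5.2 TPM in a lymph node library to 137 TPM in a liver library.

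Mcl1, which encodes a short-lived pro-survival protein, was the most abundant member at every site and stood out in blood. Its gene lies on chr3:95658788-95663176 (ENSMUSG00000038612, plus strand). Blood libraries held 815, 762 and 812 TPM, lung libraries 414, 408 and 387 TPM, and bone marrow libraries 305, 313 and 314 TPM. Liver held 284, 273 and 286 TPM, lymph node 286, 273 and 275 TPM, and spleen 249, 249.6 and 243 TPM. No blood library overlapped any other, the 3 lung libraries came next, and the other sites lay close together. The mean in blood was 796 ± 29.6 TPM (SD, n = 3), or 1.98 times that in lung and 3.22 times that in spleen. On the log2 scale blood exceeded spleen by 1.68, lymph node by 1.52, liver by 1.5, bone marrow by 1.35 and lung by 0.98 (SE 0.04 each, limma adjusted p between 1.21e-13 and 2.68e-11). Scaled to the T cell genes, these differences were larger, from 1.65 against lung to 2.64 against lymph node. Bone marrow, where the neutrophil and myeloid genes had the higher sum, held Mcl1 at 311 ± 4.78 TPM, but 10 of those 18 genes were higher in blood (Csf3r at 730 against 145 TPM, Il1b at 1576 against 213 TPM). The part of myeloid RNA was not tested. Platelet and cytotoxic genes were highest in the same 3 blood libraries as Mcl1, and their part in the difference was not tested. Lung also exceeded each of the other organs, by 0.37 (bone marrow) to 0.70 (spleen), with adjusted p from 1.62e-09 to 2.48e-06. Liver and lymph node did not pass the test against each other (0.01, adjusted p = 0.852). Spleen was lower than lymph node by a small margin (-0.17, adjusted p = 0.0124), which was lost without lymph node replicate 1 (0.0696) and under each of the 3 other scalings described below (0.06, adjusted p = 0.577, with T cell scaling).

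Bcl2, the founding pro-survival gene (ENSMUSG00000057329, chr1:106538178-106714274, minus strand), followed another order, with lymph node above blood, spleen, liver, lung and bone marrow. Lymph node libraries held 78.3, 79.3 and 80.0 TPM, blood libraries 65.0, 63.0 and 62.0 TPM, and spleen libraries 57.6, 53.6 and 57.6 TPM. Liver held 39.0, 48.5 and 37.5 TPM, lung 27.5, 30.4 and 22.9 TPM, and bone marrow 21.4, 20.3 and 21.4 TPM. The sites did not overlap, and the mean in lymph node (79.2 ± 0.864 TPM) was 3.76 times that in bone marrow (21.0 ± 0.647 TPM, SD, n = 3). The test called 14 of 15 pairs. Blood exceeded bone marrow by 1.55 (SE 0.11, adjusted p = 2.05e-08), lung by 1.21 (1.3e-07) and liver by 0.60 (0.000269). Against spleen the difference of 0.17 did not pass (0.249) as deposited, but on the T cell scale it was 1.06 and passed (3.35e-07). The difference between blood and lymph node is the least settled: it was -0.32 (0.0278) as deposited and 0.80 (7.44e-06) on the T cell scale. Leaving out any 1 of the 6 blood and lymph node libraries also ended the call (adjusted p up to 0.0801). Bone marrow lay 1.86 below lymph node on the log2 scale, a difference of -1.86 (SE 0.11, adjusted p = 1.67e-09). Lung exceeded bone marrow by 0.33 (0.0193), which was lost without lung replicate 1, lung replicate 2 or bone marrow replicate 2 (up to 0.0881) and with T cell scaling (0.16, 0.216).

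Bcl2l1, the gene of the pro-survival protein Bcl-xL (ENSMUSG00000007659, chr2:152780668-152831728, minus strand), varied less. Its means ran from 25.1 ± 1.14 TPM in blood to 49.4 ± 8.09 TPM in lung (SD, n = 3). Blood libraries held 23.8, 25.8 and 25.7 TPM and lung libraries 58.2, 47.8 and 42.2 TPM, and the other 12 libraries lay between 27.7 and 46.3 TPM. Every blood library was thus below every other library. Blood was lower than lung (-0.94, SE 0.14, adjusted p = 5.9e-05), lymph node (-0.76, 0.000527), bone marrow (-0.61, 0.00396) and liver (-0.57, 0.00498). The difference from spleen (-0.31, 0.118) did not pass. After scaling to T cell genes the sign turned against lymph node (0.33), liver (0.34) and spleen (0.57), while lung (-0.29, 0.0931) and bone marrow (-0.12, 0.538) no longer passed. No 2 neighbours in the order of sites differed by the test. The call of spleen below lymph node (-0.46, 0.0456) was lost in 12 of 18 fits that each left out 1 library (up to 0.167).

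Bcl2a1b (ENSMUSG00000089929, chr9:89199209-89207827, plus strand) encodes an A1 protein, a pro-survival family member that antigen receptor and NF-kappaB signals are known to induce. It was highest in liver and lowest in blood. Liver libraries held 241, 226 and 259 TPM, spleen libraries 191, 169 and 159 TPM, and lung libraries 196, 149 and 154 TPM. Lymph node held 115, 124 and 116 TPM, bone marrow 63.8, 71.7 and 65.8 TPM, and blood 41.1, 41.3 and 48.0 TPM. Spleen and lung overlapped, and all other sites stood apart from one another. The liver mean of 242 ± 16.8 TPM was 5.57 times the blood mean of 43.4 ± 3.94 TPM (SD, n = 3). Blood was lower than liver (-2.45, SE 0.10, adjusted p = 2.64e-11), spleen (-1.97, 4.13e-10), lung (-1.91, 4.52e-10), lymph node (-1.43, 1.48e-08) and bone marrow (-0.62, 0.00023). With T cell scaling blood stayed below liver (-1.53), lung (-1.25), spleen (-1.08) and lymph node (-0.32, 0.0185), and the difference from bone marrow (-0.13, 0.39) did not pass. The predicted gene Gm29094, which shares exon bases with Bcl2a1b on the same strand, was listed at 1.37 to 9.57 TPM.

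Bcl2a1d (ENSMUSG00000099974, chr9:88723285-88731914, minus strand) was high in both liver and lung. Liver libraries held 117, 89.7 and 127 TPM, lung libraries 95.2, 105 and 102 TPM, and spleen libraries 49.7, 39.1 and 47.2 TPM. Lymph node held 34.4, 34.0 and 38.0 TPM, blood 24.3, 21.2 and 22.5 TPM, and bone marrow 18.6, 19.7 and 23.1 TPM. Liver and lung overlapped, as did blood and bone marrow, and those pairs did not pass the test (-0.13 for lung minus liver, adjusted p = 0.477, and 0.15 for blood minus bone marrow, 0.451). Blood was lower than liver (-2.24, SE 0.13, 1e-09), lung (-2.11, 1.96e-09), spleen (-0.96, 1.88e-05) and lymph node (-0.62, 0.0011). After T cell scaling the sign against lymph node turned (0.47), spleen (-0.09, 0.584) did not pass, and blood exceeded bone marrow (0.63, 0.00114).

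Summing Bcl2a1a, Bcl2a1b and Bcl2a1d removes the question of which of these copies a read came from. Reads may still be shared between the sum and Gm29094. The summed TPM was highest in liver (353 ± 35.9), followed by lung (281 ± 20.1), spleen (221 ± 20.3), lymph node (155 ± 4.36), bone marrow (89.0 ± 4.59) and blood (74.5 ± 5.91, SD, n = 3). All 15 pairs passed the test, the least of them blood below bone marrow (-0.26, SE 0.09, adjusted p = 0.0343) and lung below liver (-0.33, 0.00793). These sums depend on the scaling of the libraries: divided by the T cell factor of each library, blood (120 ± 10.9) was no longer the lowest, with lymph node at 114 ± 4.15 and bone marrow at 101 ± 4.79 (SD, n = 3, no test). The separate values listed for the copies did not move in equal proportion, and the part of how shared reads were divided between them was not tested. Bcl2a1b made up 62.1% ± 4.57 of Bcl2a1b plus Bcl2a1d in lung, 65.7% ± 2.68 in blood and 68.6% ± 2.55 in liver, against 76.6% ± 2.31 in bone marrow, 77.0% ± 1.53 in lymph node and 79.2% ± 2.04 in spleen. Bcl2a1a itself was low, with 13.3 TPM in lung, 8.35 in blood and at most 2.53 elsewhere, and 2 liver libraries listed it at 0.

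**Figure D2:**
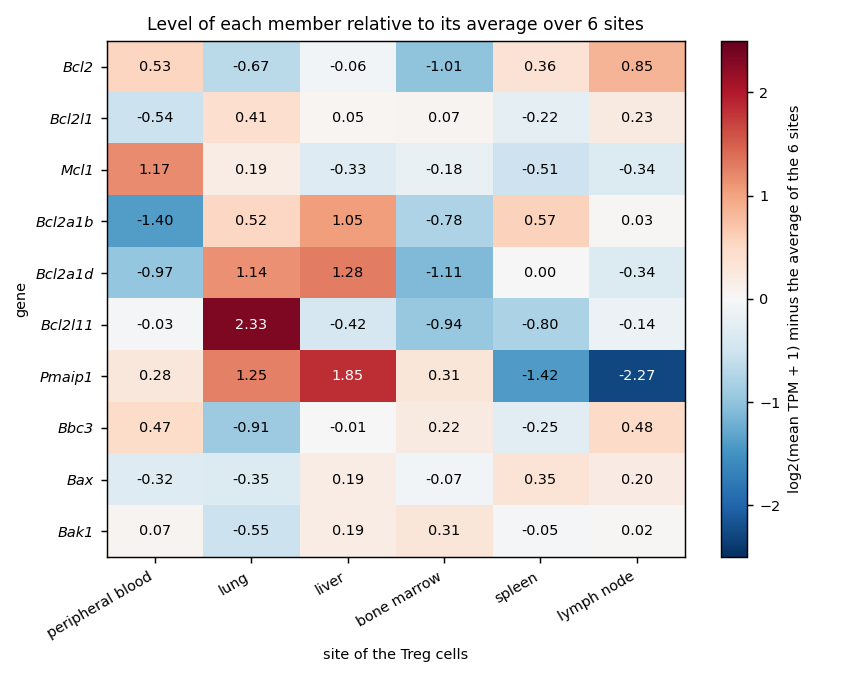
Level of each member (rows) at each site (columns), as log2(mean TPM + 1) minus the gene's average over the 6 sites. The largest departures are Bcl2l11 in lung (2.33), Pmaip1 in liver (1.85) and Pmaip1 in lymph node (-2.27).

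Among the BH3-only genes, Bcl2l11, the gene of Bim (ENSMUSG00000027381, chr2:128126038-128162547, plus strand), was set apart in lung. Lung libraries held 181, 163 and 160.2 TPM, blood libraries 32.3, 31.8 and 31.6 TPM, and lymph node libraries 28.6, 30.3 and 29.5 TPM. Liver held 18.5, 28.1 and 25.9 TPM, spleen 19.6, 18.7 and 16.7 TPM, and bone marrow 15.6, 17.0 and 17.1 TPM. All 15 libraries outside lung stayed at or below 32.3 TPM. The lung mean of 168 ± 11.2 TPM (SD, n = 3) was 5.27 times the next mean, that of blood, and 10.2 times the lowest, that of bone marrow. Lung exceeded bone marrow by 3.27 (SE 0.12, adjusted p = 1.28e-11), spleen by 3.13 (1.61e-11), liver by 2.77 (2.03e-10), lymph node by 2.47 (2.28e-10) and blood by 2.36 (3.52e-10). Across the other scalings, filters and fits tried, these differences stayed at 1.70 or more, that smallest value being the difference from blood after T cell scaling. Lung epithelium RNA was also highest in the lung libraries, and its part in the difference was not tested. Blood exceeded bone marrow (0.91, 3.63e-05) and spleen (0.77, 0.000137). Its call against liver (0.41, 0.0165) was lost without liver replicate 1 (0.0633). Liver exceeded spleen (0.36, 0.0378), but this was lost without spleen replicate 2 or 3, lymph node replicate 2 or 3, or liver replicate 2 or 3 (up to 0.146), and with T cell scaling (0.33, 0.0519).

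Pmaip1, the gene of Noxa on chromosome 18 (ENSMUSG00000024521), had the widest range of the 10. Liver libraries held 104, 137 and 109 TPM, lung libraries 88.2, 75.9 and 66.9 TPM, and bone marrow libraries 41.6, 38.3 and 38.4 TPM. Blood held 41.8, 33.9 and 40.4 TPM, spleen 14.0, 11.5 and 8.02 TPM, and lymph node 6.61, 5.57 and 5.2 TPM. Blood and bone marrow overlapped, and the other sites stood apart. The liver mean of 117 ± 18 TPM was 20.1 times the lymph node mean of 5.79 ± 0.731 TPM (SD, n = 3), a log2 difference of 4.11 (SE 0.17, adjusted p = 4.9e-11). Lung exceeded lymph node by 3.52 (1.41e-10) and spleen by 2.70 (3.68e-09). Blood exceeded lymph node by 2.55 (6.05e-09) and spleen by 1.73 (7.01e-07), was lower than liver (-1.56, 1.93e-06) and lung (-0.97, 0.000226), and did not pass against bone marrow (-0.03, 0.937). With T cell scaling the difference from lung shrank to -0.31 (0.131) and that from bone marrow became 0.46 (0.0442). Lung was called lower than liver (-0.59, 0.0138), a call lost without liver replicate 2 or lung replicate 3 (up to 0.0587) and with T cell scaling (-0.34, 0.146).

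Bbc3, the gene of Puma (ENSMUSG00000002083, chr7:16308393-16318205, plus strand), had the lowest mean over the 6 sites (17.7 TPM) and the largest standard errors of the 10. Lung held 8.30, 9.81 and 7.27 TPM, spleen 8.49, 17.0 and 16.2 TPM, and liver 9.46, 18.5 and 22.2 TPM. Bone marrow held 19.4, 23.0 and 16.7 TPM, blood 24.6, 22.8 and 23.3 TPM, and lymph node 26.3, 22.7 and 22.4 TPM. Lung was thus low where Bcl2l11 was high, and 1 library each of spleen and liver fell into the range of lung. Lung was lower than blood, with blood 1.39 above it (SE 0.27, adjusted p = 0.000564), than lymph node (-1.39, 0.000599) and than bone marrow (-1.13, 0.00305). The call against liver (-0.84, 0.0251) was lost without liver replicate 2 or 3, or lung replicate 1 or 3 (up to 0.108), and with T cell scaling (-0.60, 0.0883). Blood above spleen (0.78, 0.0348) was lost without spleen replicate 1 (0.183) or any 1 blood library. No neighbours in the order of sites passed the test.

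The effectors changed least. Bax (ENSMUSG00000003873, chr7:45461697-45466898, minus strand) had its highest mean TPM in spleen (173 ± 19.8), followed by lymph node (156 ± 4.93), liver (154 ± 27.0), bone marrow (129 ± 10.1), blood (108 ± 14.3) and lung (106 ± 20.1, SD, n = 3). The highest mean was 1.63 times the lowest, and no neighbours in this order passed the test. Blood was lower than spleen (-0.67, SE 0.15, adjusted p = 0.00187), lymph node (-0.53, 0.00976) and liver (-0.50, 0.0127). Those 3 differences changed sign after T cell scaling (0.22, 0.59 and 0.42), and the call against liver was also lost without liver replicate 3, blood replicate 1 or blood replicate 2 (up to 0.0602). Lung was lower than spleen (-0.71, 0.00116), lymph node (-0.57, 0.00573) and liver (-0.54, 0.0101, lost without lung replicate 1, 0.053). Under T cell scaling lung did not pass against lymph node (-0.11, 0.606) or liver (-0.28, 0.156), and with median-of-ratios scaling it did not pass against lymph node (-0.35, 0.071). Bak1 (ENSMUSG00000057789, chr17:27019810-27029009, minus strand) was lowest in lung, where the libraries held 20.6, 30.8 and 22.1 TPM, while the other 15 libraries lay between 32.4 and 48.8 TPM. Lung was lower than bone marrow (-0.87, SE 0.15, 0.000194), liver (-0.74, 0.00119), lymph node (-0.59, 0.00484) and spleen (-0.52, 0.0117, lost without spleen replicate 3 or lung replicate 1, up to 0.0558), and blood exceeded lung by 0.64 (0.00259). The other 10 pairs of sites did not pass for Bak1 as deposited. Some of them passed with T cell scaling, where blood exceeded lymph node (1.15, adjusted p = 5.42e-06), spleen (1.00, 2.44e-05) and liver (0.81, 0.000171). With T cell scaling lung no longer passed against lymph node (-0.15, 0.488) or spleen (-0.30, 0.132), and with median-of-ratios scaling it missed against lymph node (-0.38, 0.057).

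Set against each organ in turn, blood had members called in both directions, and all 5 comparisons share the 3 blood libraries. Against spleen 7 of 10 members were called, where 35.4% of all genes were, with 4 members higher and 3 lower against 20.1% and 15.3% of all genes. Against lymph node 7 were called (37.4% of all genes), 2 higher (Mcl1 and Pmaip1, 16.4%) and 5 lower (21%). Against bone marrow 5 were called (31.8%), 3 higher (Bcl2, Bcl2l11 and Mcl1, 13%) and 2 lower (Bcl2l1 and Bcl2a1b, 18.8%). The comparison with liver called 8 (39.4%), 3 higher (23.3%) and 5 lower (16.1%). That with lung called 9 (43.7%), 4 higher (26.4%) and 5 lower (17.3%). Mcl1 was higher and Bcl2a1b lower in blood in each of the 5. The median difference of the 10 members was 0.14 against spleen, -0.16 against lymph node, 0.06 against bone marrow, -0.30 against liver and -0.45 against lung, beside medians over all genes of 0, -0.15, -0.11, 0.07 and 0.12.

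**Figure D3:**
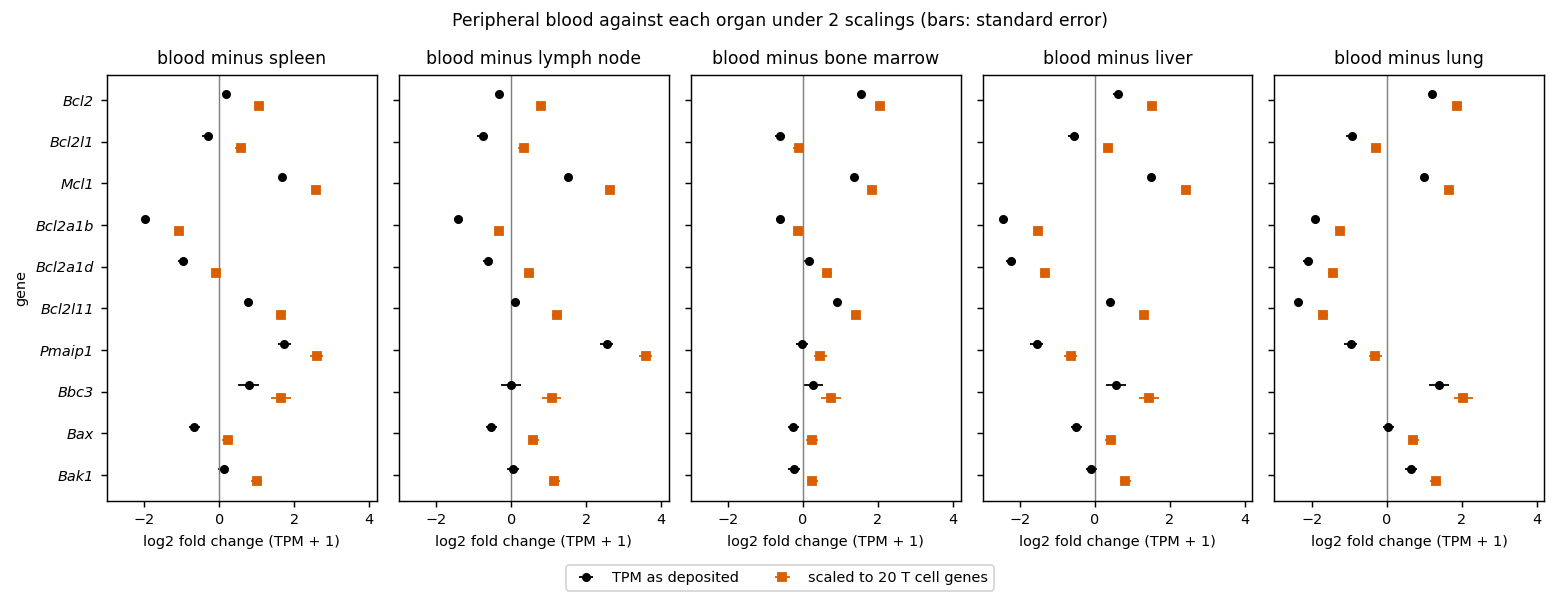
Log2 fold change of each member, blood minus each organ, with its standard error, for TPM as deposited (circles) and after scaling each library to 20 T cell genes (squares). The squares lie to the right of the circles throughout; Mcl1 is above 0 and Bcl2a1b below 0 in all 5 panels on both scales.

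Scaling to the T cell genes moved each member upward in blood relative to the organs, since those genes were lower there. The median over all genes became 0.73 against spleen, 0.74 against lymph node, 0.30 against bone marrow, 0.86 against liver and 0.68 against lung. Members called higher and lower became 7 and 1 against spleen (55% and 2.68% of all genes), 8 and 1 against lymph node (57.2% and 1.85%), and 6 and 0 against bone marrow (31.6% and 8.04%). Against liver they became 7 and 3 (62% and 4.6%), and against lung 5 and 3 (53.2% and 7.24%).

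Lung and liver, the 2 solid tissues outside the lymphoid organs and marrow, were set against each other and against the lymphoid sites and marrow. Lung against liver called 8 members where 34.9% of all genes were called, 2 higher (Bcl2l11 and Mcl1, 17.3%) and 6 lower (17.6%). That count fell with library weights and with only these groups in the fit, as given in the last section. Lung against bone marrow called 8 (43.5%), 6 higher (13.2%) and 2 lower (Bbc3 and Bak1, 30.3%). For lung against spleen 8 were called (40.8%), 5 higher and 3 lower (18% and 22.8%), and for lung against lymph node 9 (42.3%), 5 higher and 4 lower (14.9% and 27.4%). Bcl2l11, Mcl1, Bcl2a1d and Pmaip1 were higher in lung in each of the last 3 comparisons, and Bak1 was lower. Liver against bone marrow called 6 (34.5%), 5 higher and 1 lower (9.36% and 25.1%). Liver against spleen called 6 (31.3%), 5 and 1 (14% and 17.3%). Liver against lymph node called 4, near the share of all genes (31.1%), 3 and 1 (9.45% and 21.6%). Bcl2a1b, Bcl2a1d and Pmaip1 were higher in liver in all 3, by 0.48 to 4.11. Liver erythroid RNA was high in the same libraries, and its part in these differences was not tested.

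Among the lymphoid sites and marrow, bone marrow against spleen called 5 members where 24.1% of all genes were called, 2 higher (Mcl1 and Pmaip1, 18.2%) and 3 lower (5.92%). Bone marrow against lymph node called 6 (22.5%), with 2 higher, the same pair, and 4 lower (13.7% and 8.89%). Spleen against lymph node called 6 (14.3%), 2 higher (Bcl2a1b and Pmaip1) and 4 lower (4.44% and 9.87%). Bcl2 was lower in bone marrow than in spleen (-1.38, SE 0.11, adjusted p = 7.59e-08), and Pmaip1 was higher (1.76, SE 0.17, 1.07e-06). With T cell scaling the split of members became 3 and 3 for lung against liver (25.8% and 11% of all genes), 5 and 2 for lung against spleen (23.2% and 15.7%), and 6 and 2 for lung against lymph node (25% and 12.6%). For lung against bone marrow the split became 5 and 3 (9.98% and 37.5%), and for liver against spleen 4 and 1 (12.6% and 17.2%). It became 4 and 4 for liver against bone marrow (3.64% and 47.1%), 4 and 1 for liver against lymph node (12.2% and 11.7%), 5 and 3 for bone marrow against spleen (40.5% and 2.57%), 4 and 1 for bone marrow against lymph node (43.8% and 1.81%), and 3 and 1 for spleen against lymph node (6.73% and 2.48%).

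For the 2 other scalings, the pairs given first are those in which the share of higher calls among all called genes moved by over 10 percentage points. Median-of-ratios scaling gave members 3 higher and 3 lower for blood against lymph node (21.1% and 11.2% of all genes), 3 and 2 for blood against bone marrow (17.3% and 12.7%), 6 and 2 for lung against lymph node (19.2% and 19.3%), 4 and 1 for liver against lymph node (12.8% and 13.3%), and 3 and 1 for spleen against lymph node (6.25% and 3.54%). Removing mitochondrial, ribosomal protein and haemoglobin genes gave 3 and 4 for blood against spleen (16.3% and 18.7%), 2 and 4 for bone marrow against spleen (11.8% and 9.07%), 1 and 4 for bone marrow against lymph node (11.6% each way), 5 and 0 for liver against bone marrow (11.1% and 18.9%), and 3 and 2 for spleen against lymph node (4.58% and 6.01%). Elsewhere the members called higher and lower also moved. With median-of-ratios scaling they became 3 and 6 for lung against liver (18.3% and 16.6% of all genes). For lung against bone marrow they became 7 and 2 (16.1% and 25.3%). They became 5 and 0 for liver against bone marrow (11.7% and 20.3%), and 2 and 4 for bone marrow against spleen (14.6% and 7.59%). With those gene classes removed they became 3 and 1 for liver against spleen (11.7% and 19%). For lung against bone marrow they became 7 and 2 (14.5% and 24.5%). Mcl1 stayed higher in blood than at each other site on all of these scales.

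Ratios of 2 members within a library do not depend on how that library is scaled, so they were described as well, with no test. Sums do depend on it. As deposited, the summed TPM of the pro-survival members was highest in blood (951 ± 32.4), followed by lung (747 ± 41.6), liver (714 ± 38.2), spleen (554 ± 19.6), lymph node (554 ± 2.88) and bone marrow (458 ± 11.8, SD, n = 3). Divided by the T cell factor of each library, the sum remained highest in blood (1530 ± 72.4), and the lowest was lymph node (409 ± 4.78) and not bone marrow (523 ± 13.8). The share of Mcl1 in that sum was largest in blood (83.7% ± 0.322), then bone marrow (67.8% ± 0.715), lung (54.0% ± 1.46), lymph node (50.1% ± 1.22), spleen (44.7% ± 1.23) and liver (39.4% ± 1.27). In liver Bcl2a1b and Bcl2a1d together exceeded Mcl1, at 33.9% ± 0.540 and 15.6% ± 2.00 of the sum, while in blood they were 4.57% ± 0.356 and 2.38% ± 0.112. Bcl2 took its largest share in lymph node, 14.3% ± 0.221.

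**Figure D4:**
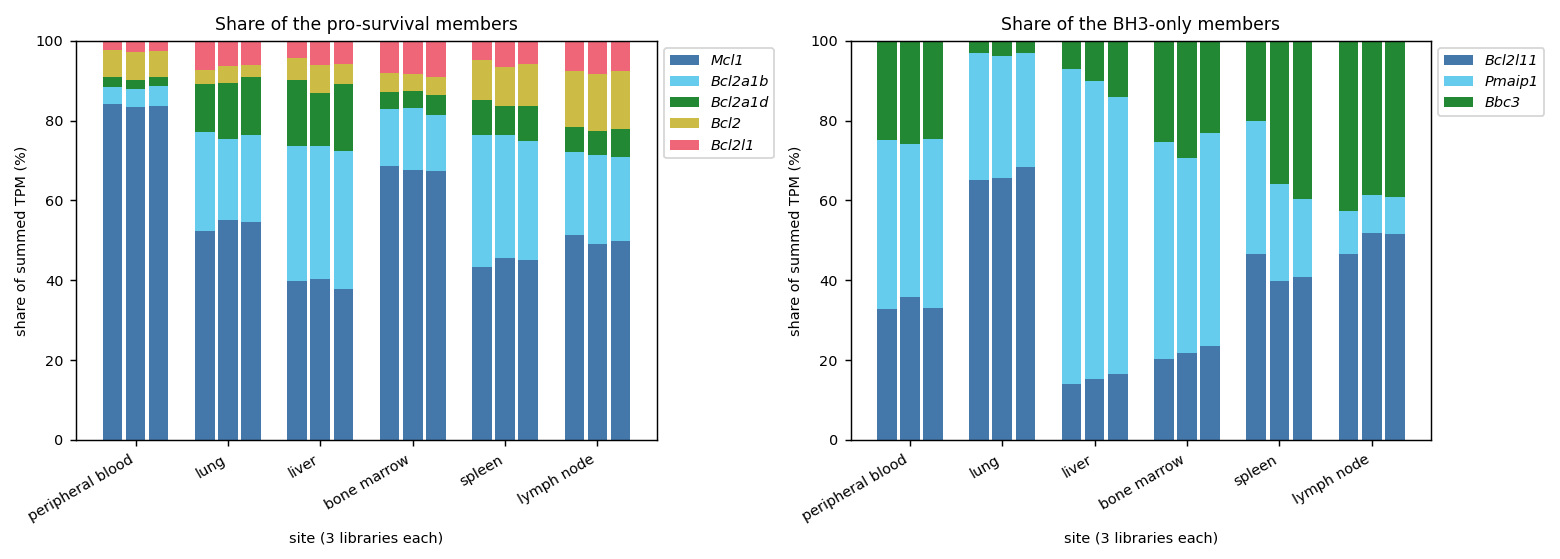
Share of each gene in the summed TPM of the 5 pro-survival members (left) and of the 3 BH3-only members (right), in percent, 1 bar a library. Mcl1 takes 83.4% to 84.1% of the left bars in blood; on the right Bcl2l11 takes 65.2% to 68.4% in lung and Pmaip1 69.4% to 78.8% in liver.

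For the BH3-only members the summed TPM, as deposited, was highest in lung (254 ± 21.9), followed by liver (158 ± 26.1), blood (94.2 ± 5.22), bone marrow (75.7 ± 3.15), lymph node (59.1 ± 2.21) and spleen (43.4 ± 3.33). Divided by the T cell factor, lung was again highest (256 ± 24) and blood (152 ± 10.3) came before liver (133 ± 20.2). The high sums in lung and liver rested on different genes. Bcl2l11 made up 66.4% ± 1.72 of the sum in lung and 15.3% ± 1.22 in liver, whereas Pmaip1 made up 30.3% ± 1.63 in lung and 74.3% ± 4.71 in liver. In lymph node Pmaip1 was 9.79% ± 0.860 of the sum, and Bbc3 was 40.2% ± 2.22, with Bcl2l11 at 46.5% to 51.8% in the 3 libraries.

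The ratio of the 5 pro-survival to the 3 BH3-only members leaves out other expressed BH3-only genes. Of these, Bid and Bad were lowest in lung (8.81 and 14.4 TPM), against 42.0 and 26.1 in blood and 38.5 and 34.9 in bone marrow. Bmf and Bik were not lowest in lung. No ratio that includes these genes was taken, and the order of sites below holds for the listed members only. Among those members the ratio was lowest in lung, at 2.85, 2.98 and 3.02. It was 5.40, 3.68 and 4.80 in liver and 5.81, 5.91 and 6.46 in bone marrow, and 9.04 or more in every blood, lymph node and spleen library, up to 13.7. For the pair Bcl2l11 over Bcl2, the lung libraries stood at 6.59, 5.37 and 7.00, and the other 15 libraries lay between 0.290 and 0.837. Transcripts of Bim thus outnumbered those of Bcl2 in the lung libraries alone. For Mcl1 over Pmaip1 the order was another one, from lymph node (48.4 ± 4.86) through spleen (23.3 ± 6.42), blood (20.7 ± 1.58), bone marrow (7.90 ± 0.478) and lung (5.28 ± 0.545) to liver (2.45 ± 0.405, SD, n = 3). Bax exceeded Bak1 in every library, by 2.56 to 5.40 times.

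**Figure D5:**
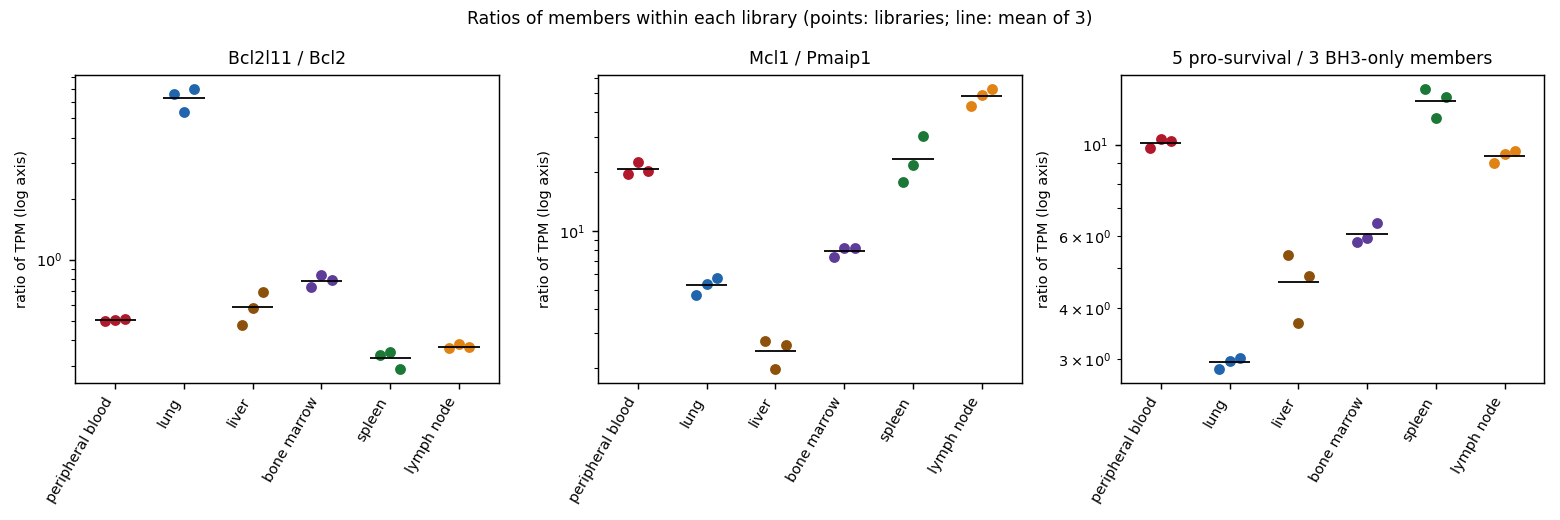
Ratios of TPM within each library for Bcl2l11 over Bcl2, Mcl1 over Pmaip1, and the 5 pro-survival over the 3 BH3-only members (log axes, points are libraries, the line is the mean of 3). Lung stands apart in the first panel, at 5.37 to 7.00, and is lowest in the third, at 2.85 to 3.02.

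Other genes of the pathway were counted by list, on the deposited scale. The counts stand beside 68% of all genes called in the F test, 20.1% higher and 15.3% lower in blood than in spleen, and 26.4% higher and 17.3% lower in blood than in lung. With T cell scaling, 55% of all genes became higher in blood than in spleen and 53.2% higher than in lung, so each split is also given on that scale. Of 16 further Bcl2 family genes 12 were tested and 10 passed the F test over the sites. In blood 5 were higher and 1 lower than in spleen, and 5 higher and 0 lower than in lung (7 and 0 for each with T cell scaling). Bid, which links death receptors to the mitochondrial route, was at 42.0 TPM in blood and 38.5 in bone marrow, at 19.9 to 22.7 in liver, lymph node and spleen, and lowest in lung (8.81). Bmf, another BH3-only gene, was at 14.7 TPM in blood, 7.98 in lung and at most 5.09 elsewhere. Of 13 genes for the apoptosome, caspases and inhibitor of apoptosis proteins, 12 passed the F test, with 5 higher and 3 lower in blood than in lung (7 and 2 with T cell scaling). Birc3 and Birc2, which encode the ubiquitin ligases cIAP2 and cIAP1, were highest in lung, at 325 and 149 TPM, against at most 180 and 92.4 TPM elsewhere. Birc5, the gene of survivin, which also serves in cell division, was at 68.5 TPM in bone marrow and at most 16.8 TPM elsewhere.

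All 11 genes of the death receptor pathway passed the F test, beside 68% of all genes. Blood had 4 higher and 3 lower than spleen, and 4 higher and 4 lower than lung, which became 7 and 0, and 7 and 1, with T cell scaling. Tnfrsf1a, which encodes TNF receptor 1, was at 137 TPM in blood, 58.1 in bone marrow and at most 32.2 elsewhere. Blood and bone marrow were also the sites with the most neutrophil and myeloid RNA, and its part in this was not tested. Tnfrsf10b, the mouse TRAIL receptor, was at 17.4 TPM in liver and 15 in lung, against at most 6.49 elsewhere. Of 12 genes on the list of p53 and its targets 11 were tested and 9 passed the F test. Pmaip1, Bbc3 and Bax are known p53 targets as well, and these genes did not share an order of sites. Cdkn1a, the cell cycle inhibitor p21, was highest in lung (104 TPM), Btg2 in bone marrow (424 TPM) and liver (410 TPM), and Gadd45a in bone marrow (125 TPM) and blood (103 TPM).

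Of 9 genes known to act on the stability or tethering of Mcl1 or Bim proteins, 5 passed the F test, beside 68% of all genes. Usp9x, a deubiquitinase of Mcl1, was at 99.3 TPM in lung and 37.0 in spleen, and Huwe1, a ubiquitin ligase of Mcl1, at 210 TPM in lymph node and 116 to 134 elsewhere. Dynll2, a dynein light chain that tethers Bmf, was at 23.8 TPM in lung and 53.2 in lymph node. All 11 genes of the cytokine and Foxo inputs passed. In blood, as deposited, 7 were lower and 3 higher than in lung (17.3% and 26.4% of all genes), 7 lower and 3 higher than in lymph node (21% and 16.4%), and 6 lower and 3 higher than in spleen (15.3% and 20.1%). Scaled to the T cell genes, these became 5 lower and 3 higher against lung (7.24% and 53.2% of all genes), 0 and 7 against lymph node (1.85% and 57.2%), and 0 and 8 against spleen (2.68% and 55%). Stat5a, a transcription factor downstream of interleukin-2 and interleukin-7, was at 230 TPM in lung and at most 80.6 elsewhere, and Il7r, a receptor chain for interleukin-7, at 459 TPM in lung and at most 235 elsewhere. Il2rb and Pim1 of the same list were also highest in lung, at 415 and 631 TPM, against at most 385 and 551 TPM elsewhere. Lung thus held the highest level of Bcl2l11 together with the highest levels of these cytokine signal genes. Il2ra, an interleukin-2 receptor chain, had another order, at 76.2 TPM in lung, 57.1 in bone marrow and 84.3 to 234 elsewhere. A link between Bcl2l11 and these genes was not tested.

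The genes most like each member were ranked by Pearson's r of log2(TPM + 1) over the 18 libraries, among 9392 genes. The libraries of a site share their source, so r describes the order of sites more than 18 independent points, and no test is given. For Mcl1 they were Slc6a4 (r = 0.988), Ednrb (0.985) and the mitochondrial ribosomal RNA mt-Rnr2 (0.98). Slc6a4 was at 29.3 TPM in blood, 2.36 in lung and at most 0.217 elsewhere. Ednrb was at 19.5 TPM in blood, 1.84 in lung and at most 0.187 elsewhere, and mt-Rnr2 at 11700 TPM in blood and 630 to 2030 elsewhere. Platelet, myeloid and cytotoxic RNA was also high in the blood libraries, and its part in these values was not tested. For Bcl2l11 they were Tmem123 (0.985), Zfp281 (0.982) and Socs3 (0.974), of which Socs3 was at 592 TPM in lung and 132 in blood. For Pmaip1 they were Sik1 (0.957), Klf6 (0.957) and Junb (0.948), and for Bcl2 Etnk1 (0.938), Nsg2 (0.936) and Gpr83 (0.93). Bcl2a1b was followed most closely by Myl12a (0.963), Cd83 (0.962) and H2-T10 (0.928), and Bcl2a1d by Cyp51 (0.966), Zbtb1 (0.962) and Nr4a3 (0.95). The closest gene was Leo1 for Bcl2l1 (0.91), Galnt12 for Bax (0.908), Nbeal2 for Bak1 (0.937) and Prickle3 for Bbc3 (0.942).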

How the data were processed

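The authors deposited 1 table of TPM values per library for 55487 Ensembl gene identifiers, with sums of 999999.27 to 1000000.62 per library. The submitters' processing notes name STAR, RSEM and mm10, and their roles, versions and annotation are not given in the sources used here. Whether counting used strand is also not stated, so genes that overlap on either strand may share reads with members. These are D630008O14Rik with Bcl2, Ggnbp1 with Bak1, Gm45808 with Bax and Gm29094 with Bcl2a1b. Symbols and positions came from GENCODE M21 (55141 identifiers matched). From the deposited TPM, log2(TPM + 1) was tested with limma 3.58.1 in R 4.3.3 (1 mean per site, eBayes with trend and robust settings) on genes whose mean reached 1 TPM at 1 site or more. As TPM keeps no counts or depth, count models were not run and no counting intervals are given. The limma script was tested on simulated data. Alternatives were another pseudocount, 2 other filters, 3 other scalings, plain eBayes, library weights, the replicate block, the 2 groups alone and each library left out; leaving out liver and summing the Bcl2a1 copies were added after seeing the data. All members are named. In each pathway list the named genes come from the 4 with the smallest F test p and a highest site mean of 10 TPM or more, and for likeness the 3 with the highest r. Il2ra was named outside this rule, because its order of sites differed from those of Stat5a and Il7r. The members and lists were chosen with earlier results of these data known.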

Additional observations from a re-analysis of the deposited data

How the results depend on the processing

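All 10 members stayed called in the F test over sites under each of the 27 alternatives (highest adjusted p 0.0114, for Bak1). A sign is given here as turned where a called difference changed sign, or an uncalled one became called with the opposite sign; uncalled differences that crossed 0 and stayed uncalled are not listed. By that rule scaling to 20 T cell genes turned the most signs: in blood minus spleen Bcl2l1 (0.57) and Bax (0.22), in blood minus lymph node Bcl2 (0.80), Bcl2l1 (0.33), Bcl2a1d (0.47), Bbc3 (1.08) and Bax (0.59), in blood minus bone marrow Pmaip1 (0.46), in blood minus liver Bcl2l1 (0.34), Bax (0.42) and Bak1 (0.81), in bone marrow minus lymph node Bcl2l1 (0.46), and in spleen minus lymph node Mcl1 (0.06). By the same rule median-of-ratios scaling turned Mcl1 in spleen minus lymph node (0.01). Summing the Bcl2a1 copies turned blood minus bone marrow for Bcl2a1d (-0.26) and lung minus spleen for Bcl2a1b (0.34). Counts of members called moved for lung against liver, from 8 to 5 with library weights and to 3 with only those 2 groups in the fit, for liver against spleen, from 6 to 3 with only those groups, and for bone marrow against spleen, from 5 to 8 with T cell scaling and with library weights. With T cell scaling 40.5% of all genes were higher and 2.57% lower in bone marrow than in spleen. For library weights and for 2 groups alone the share of all genes called was not taken. A change particular to the members therefore cannot be read from those counts. No clear pairing by replicate number was seen. Same-numbered libraries deviated with r from -0.0345 to 0.0302 (median 0.00685, against -0.00191 for different numbers), and 9 of 18 correlated best with their own number. These values cannot show whether libraries of different sites came from the same animals. With the replicate block Bax passed in bone marrow minus spleen (-0.41, adjusted p = 0.0341) and Bcl2l1 no longer did in spleen minus lymph node (-0.46, 0.0539), and no other call changed. Of the values without 1 library, 2815 kept direction and call, 45 lost a call and 20 gained one. Except for the summed copies and the scaling by T cell genes, whose construction sets the change, the cause was not tested. TPM hides depth, and liver and lung, with the largest spread, limit what small differences can be seen.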
